A study of Mus musculus with 27 samples.

Results

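Ovaries of aged mice given auranofin were compared with ovaries of young untreated mice, to see which differences from young remained under the drug. The comparison holds 9 of the 27 libraries of the series, 4 from auranofin-treated aged mice and 5 from young untreated mice, and these were taken by their labels alone. They belong to experiment 2, whose 5 libraries of untreated aged mice are used here to say where the 2 aged groups stood relative to each other. Experiment 1 has 4 libraries of aged mice given TRi-1, 4 of untreated aged mice and 5 of young mice. It shares no library with experiment 2. All libraries are polyA RNA of ovary, read at the 3′ ends of transcripts. The labels state no strain, age, dose, route or length of treatment, and no vehicle for the untreated mice. The labels name an aged or young mouse and a replicate number but do not say that replicates are separate animals, so p-values measure the spread between these libraries.

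Auranofin is a gold compound that binds the selenocysteine of thioredoxin reductases, the enzymes that keep thioredoxin reduced with electrons from NADPH. Cells that lose this activity, or meet electrophiles and metals, release the transcription factor NRF2 from its inhibitor KEAP1, and NRF2 then binds antioxidant response elements in the promoters of genes for haem breakdown, glutathione synthesis and thioredoxin recycling. The ageing mouse ovary is known for the loss of its follicles and for a gain of macrophages, lymphocytes and inflammatory signals. In bulk tissue, fewer cells of a type and less RNA per cell cannot be told apart.

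Levels are CPM, counts scaled to a common normalised library size, changes are log2 fold changes ± standard error, and a gene was called where its p from edgeR's quasi-likelihood test, adjusted over all genes tested, was below 0.05. Library totals ran from 9895231 to 14479170 counts in auranofin ovaries, 10139429 to 14027986 in untreated aged ovaries and 6782228 to 9799253 in young ovaries. Of the 14 libraries, 3 stood apart. Auranofin 3 and young 3 were very low in some steroidogenic transcripts. Cyp11a1, the side-chain cleavage enzyme that starts steroid synthesis, was at 0.294 CPM in auranofin 3 and 3.52 CPM in young 3, against at least 44.7 CPM in each other library. Star was at 21.7 CPM in auranofin 3 and 12.3 CPM in young 3. The summed steroid synthesis genes were at 959 and 755 CPM, the lowest of each group, beside 770 CPM in untreated aged 1. Young 3 also had no count of the zona pellucida genes Zp2 and Zp3, which were at 0 in several aged libraries too. Other ovarian markers were mixed. Nr5a1 was at 0 in both, and Lhcgr (0.294 CPM in auranofin 3, 0.126 CPM in young 3) and Inha (3.43 and 1.51 CPM) were the lowest of each group. Foxl2, a granulosa cell factor, was at 7.25 CPM in auranofin 3, within the range of its group, and at 43 CPM in young 3, the highest of the 14 libraries. Wt1, made in the ovarian surface epithelium, was at 66.6 CPM in auranofin 3 and 46.2 CPM in young 3, the lowest of each group. Both libraries had more Pgr and Lcn2 than any other library of their group. Hoxa11 (74.8 CPM) and Msx1 (28.1 CPM) were highest of their group in auranofin 3. In young 3 they were at 48.7 and 51.1 CPM, below young 1 only. Among the 14 libraries young 3 correlated best with auranofin 3 (0.89), and auranofin 3 with untreated aged 1 (0.898). The tissue content of auranofin 3 and young 3 was not tested. Auranofin 4 had the lowest number of detected genes (17302) and the lowest mean correlation with its own group (0.807). Its TMM normalisation factor (0.774) was also the lowest. Many of the counts below, but not all, are therefore also given without auranofin 3 and young 3, or without auranofin 3, auranofin 4 and young 3.

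Aged ovaries under auranofin differed widely from young ovaries. Of 16309 genes tested, 1464 were called (8.98%), of which 884 were higher in auranofin ovaries (5.42%) and 580 were lower (3.56%). Without auranofin 3 and young 3 the count was 1891, and without auranofin 4 as well it was 1712. Leaving out single libraries gave counts from 906, without auranofin 1, to 1840, without young 3. In untreated aged ovaries 956 genes were higher (5.86%) and 749 were lower (4.59%) than in young ovaries, 10.5% of those tested. The median change over all genes was -0.01 in auranofin ovaries and -0.03 in untreated aged ovaries against young.

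Of the differences from young called in untreated aged ovaries, 977 were called the same way under auranofin. The count was 1278 without auranofin 3 and young 3, and 1251 without auranofin 4 as well. Of the 956 genes higher in untreated aged ovaries, 613 were also called higher in auranofin ovaries, which is 64.1% of the untreated aged list and 69.3% of the auranofin list. Of the 749 genes lower in untreated aged ovaries, 364 were also called lower in auranofin ovaries, which is 48.6% of the untreated aged list and 62.8% of the auranofin list. Both comparisons use the same 5 young libraries, which brings their lists together, and no gene was called in opposite directions. The other 343 higher and 385 lower genes of untreated aged ovaries missed the threshold under auranofin, but 338 and 379 of them had the same sign there. None of these genes was called between auranofin and untreated aged ovaries. That direct test called 3 of 16309 genes in all (0.0184%), Hmox1, Srxn1 and Gclm, all higher under auranofin, and it called 3 in each of the 9 fits that left out 1 auranofin or untreated aged library. In the same test 1148 of the 16309 genes had an unadjusted p under 0.05, more than the share of 0.05 awaited if none differed. A gene not called there may still differ.

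Experiment 1 allows the same question without shared libraries, and there 34.9% of genes were called between untreated aged and young ovaries. Among the 2931 tested genes that were higher with age in experiment 1, 695 (23.7%) were higher in auranofin than in young ovaries of experiment 2, 2 were lower, and the median change was 0.62. Among the 2486 tested genes that were lower with age in experiment 1, 442 (17.8%) were lower in auranofin ovaries, 1 was higher, and the median change was -0.66. The sign was that of experiment 1 for 87.7% of the higher and 89.5% of the lower genes, whereas 49.6% of all genes were positive. In untreated aged against young ovaries of experiment 2 the same lists gave 805 higher genes (27.5%) and a median of 0.57, and 615 lower genes (24.7%) and a median of -0.69. The joint count of 1137 genes under auranofin became 1447 without auranofin 3 and young 3, 1236 without auranofin 4 as well, and 747 without auranofin 1, the lowest of the single-library fits. Of the 1464 genes called in auranofin ovaries, 324 were not called with age in experiment 1, 27 of them because they were not tested there.

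**Figure D1:**
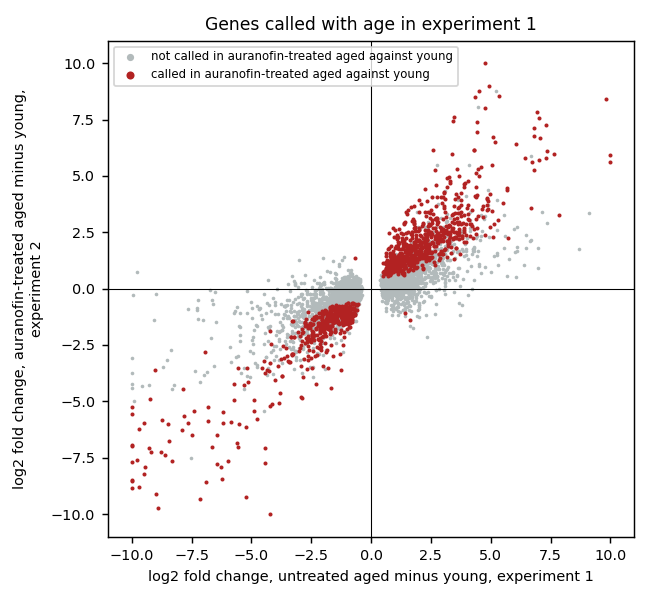
Each point is 1 of the genes called with age in experiment 1, with its log2 fold change between auranofin-treated aged and young ovaries of experiment 2 on the vertical axis and between untreated aged and young ovaries of experiment 1 on the horizontal axis. Red points were called in experiment 2, 13 genes past a log2 change of 10 are drawn at that limit, and of the red points 2 among genes higher with age and 1 among genes lower with age have the opposite sign.

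Counts of called members are set side by side for the 2 aged groups. Macrophage genes had 19 calls under auranofin beside 20 in untreated aged ovaries, and neutrophil genes 14 beside 13. T cell genes had 11 beside 18, NF-kB genes 7 beside 15, and the NRF2 list had 16 calls under auranofin beside 4 in untreated aged ovaries. The auranofin counts move with the method: T cell genes had 17 calls with DESeq2 or in a fit of all 27 libraries and 5 in a fit of the 9 libraries alone, NF-kB genes had 12 with limma-voom or all 27 libraries and 4 with the 9 alone, and neutrophil genes had 8 with limma-voom and 9 with the 9 alone. The only list members called in the direct test of auranofin against untreated aged ovaries were the 3 genes of the NRF2 list, so no member of the other lists was called between the aged groups, the thioredoxin list aside, which also holds Gclm.

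**Figure D2:**
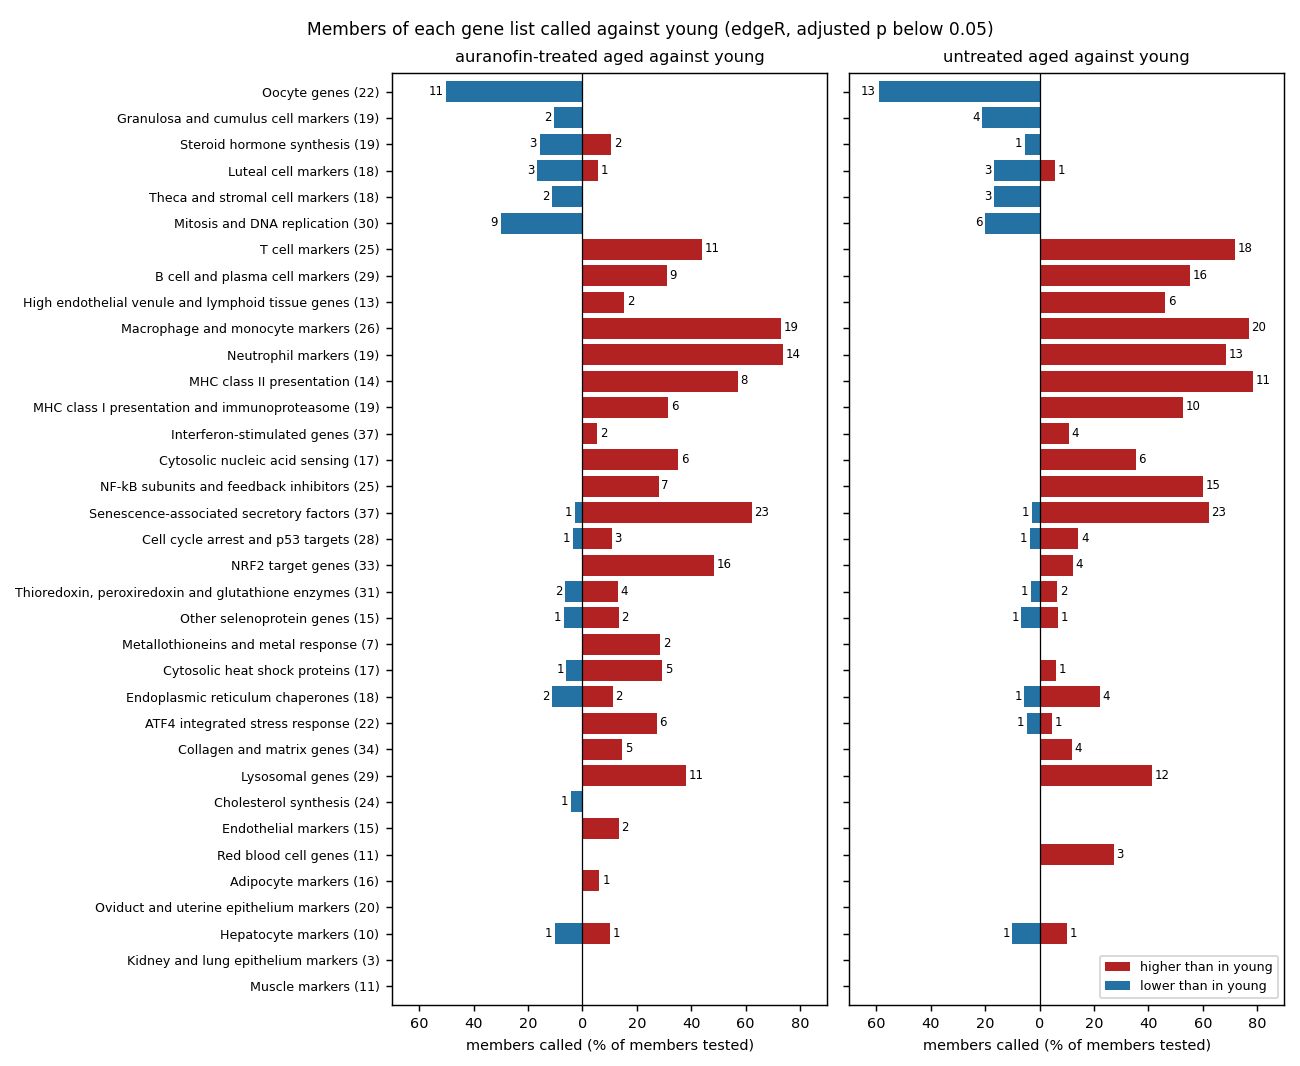
Share of the tested members of each gene list that were called higher (red, to the right) or lower (blue, to the left) than in young ovaries, for auranofin-treated aged ovaries on the left and untreated aged ovaries on the right. Numbers beside the bars are genes called, numbers in parentheses are members tested, and the NRF2 list had 16 higher members under auranofin against 4 without it.

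Many NRF2 target genes rose in auranofin ovaries. Of 33 tested members 16 rose and none fell against young, with a list median of 1.13, while 4 rose in untreated aged ovaries, with a median of 0.20. Hmox1, haem oxygenase 1, which breaks haem down to biliverdin, iron and carbon monoxide (chr8:75093621-75100589, GRCm38), had 1100, 478, 392 and 873 CPM in auranofin ovaries. It had 39.1, 39.7, 38.4, 44.4 and 42.4 CPM in untreated aged ovaries, and 6.94, 14.3, 18.4, 6.95 and 9.47 CPM in young ovaries. The 3 groups did not overlap, and every auranofin library was above every untreated aged library. Its change from young was 5.99 ± 0.39 (adjusted p = 1.2e-06) under auranofin and 1.87 in untreated aged ovaries (adjusted p = 0.0019), and auranofin exceeded untreated aged by 4.12 (adjusted p = 7.5e-05).

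Srxn1 and Gclm are shown with Txnrd1 by their promoters, because their 300-base windows hold an antioxidant response element core while these genes rose in auranofin ovaries. The windows run from 250 bases before to 50 bases after an annotated start (RefSeq, GRCm38.p6), 5′ to 3′ along the gene. Capitals mark matches to TGACNNNGC or TGAGNNNGC on either strand.
Srxn1: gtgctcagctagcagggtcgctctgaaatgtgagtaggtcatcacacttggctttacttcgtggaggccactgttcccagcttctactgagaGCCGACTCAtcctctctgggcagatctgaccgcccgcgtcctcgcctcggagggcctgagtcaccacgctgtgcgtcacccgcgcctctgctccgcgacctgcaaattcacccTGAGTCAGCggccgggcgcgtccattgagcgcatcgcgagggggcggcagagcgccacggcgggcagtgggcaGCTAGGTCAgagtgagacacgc
Gclm: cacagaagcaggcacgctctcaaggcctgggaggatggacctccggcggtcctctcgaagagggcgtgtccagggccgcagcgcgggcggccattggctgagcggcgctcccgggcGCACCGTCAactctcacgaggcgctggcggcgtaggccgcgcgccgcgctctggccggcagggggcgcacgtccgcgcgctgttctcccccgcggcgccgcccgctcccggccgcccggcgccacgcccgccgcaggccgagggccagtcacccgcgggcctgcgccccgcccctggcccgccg
Txnrd1: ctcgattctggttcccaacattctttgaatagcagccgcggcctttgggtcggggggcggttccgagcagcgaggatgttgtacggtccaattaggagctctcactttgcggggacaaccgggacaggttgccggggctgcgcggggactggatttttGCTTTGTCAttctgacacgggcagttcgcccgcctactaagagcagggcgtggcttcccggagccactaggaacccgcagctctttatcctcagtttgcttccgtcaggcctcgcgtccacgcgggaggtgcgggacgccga
The Srxn1 window (chr2:152105274-152105573, plus strand) held 3 matches, and the Gclm window (chr3:122245307-122245606, plus strand) held 1. Txnrd1 has 3 windows, and the only one with a match was chr10:82858956-82859255 on the plus strand. One or the other motif was found in 27.8% of all 32851 windows, TGACNNNGC in 12.4% and TGAGNNNGC in 17.6%. Counted per gene, 30.8% of 27025 genes had a window with either motif, so a match is common. Of the 16 NRF2 members that rose, 14 had a window and 9 of these held a match, and of the 17 that were not called, 14 had a window and 7 held a match. A match is a description of these letters, not evidence of binding.

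Srxn1, sulfiredoxin, repairs overoxidised peroxiredoxins. It had 511, 409, 269 and 198 CPM in auranofin ovaries, 66.9, 68.3, 69.9, 68.4 and 49.5 CPM in untreated aged ovaries and 20.6, 18.7, 36.7, 18.7 and 27.7 CPM in young ovaries. The groups did not overlap, and the change from young was 3.82 ± 0.30 (adjusted p = 9.5e-06), with 2.42 of it above untreated aged ovaries (adjusted p = 0.002). Gclm, the modifier subunit of the rate-limiting enzyme of glutathione synthesis, had 155, 130, 121 and 65.4 CPM in auranofin ovaries, 24.8, 24.4, 31.4, 25.6 and 23.9 CPM in untreated aged ovaries and 19.8, 34.0, 31.6, 26.2 and 17.6 CPM in young ovaries. Only the auranofin libraries stood apart, with a change from young of 2.19 ± 0.26 (adjusted p = 2e-04) beside 0.01 in untreated aged ovaries. Gclm was thus the 1 gene called both against young and against untreated aged ovaries that untreated aged ovaries did not share. Its partner Gclc, the catalytic subunit, was at 0.70 ± 0.30 against young (adjusted p = 0.17).

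**Figure D3:**
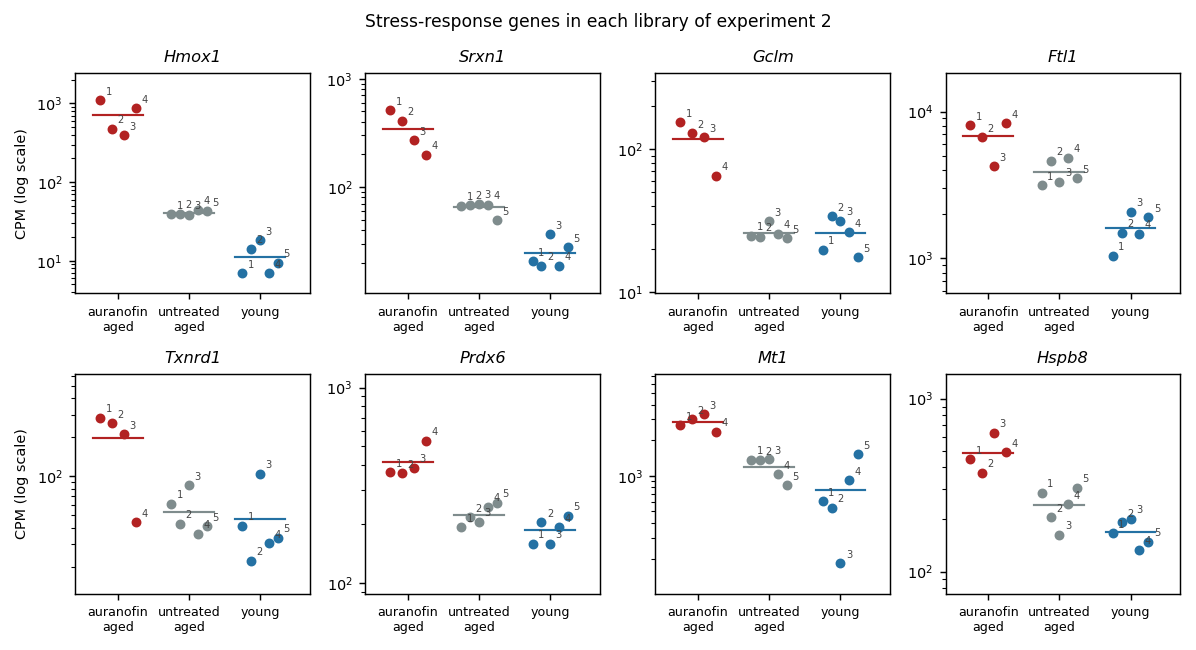
CPM on a log scale of 8 stress-response genes in every library of experiment 2, in auranofin-treated aged, untreated aged and young ovaries from left to right, numbered by replicate, with a line at each group mean. Hmox1, Srxn1, Gclm, Prdx6 and Hspb8 in auranofin ovaries lie above every library of the other groups, and Txnrd1 in auranofin 4 (44.5 CPM) lies among the young ovaries.

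Txnrd1, the cytosolic thioredoxin reductase that auranofin binds, had 283, 257, 212 and 44.5 CPM in auranofin ovaries, 61.7, 43.1, 85.2, 36.1 and 41.2 CPM in untreated aged ovaries and 41.5, 22.4, 105, 30.4 and 33.6 CPM in young ovaries. Auranofin 1 to 3 were above every other library, while auranofin 4 lay within the range of both other groups. The change from young was 2.09 ± 0.50 (adjusted p = 0.016), beside 0.20 in untreated aged ovaries (adjusted p = 0.86). It missed the threshold without auranofin 1 (1.85, adjusted p = 0.058), and it was 3.04 without auranofin 3, auranofin 4 and young 3. The mitochondrial reductase Txnrd2 was at -0.05 ± 0.30 (adjusted p = 0.94), a value whose sign turned to 0.04 without young 2, 0.01 without auranofin 1, 0.03 without auranofin 4 and 0.09 without auranofin 3, auranofin 4 and young 3.

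Ftl1, the ferritin light chain that stores iron, was at 8050, 6710, 4230 and 8300 CPM in auranofin ovaries, 3150, 4620, 3330, 4850 and 3520 CPM in untreated aged ovaries and 1040, 1500, 2080, 1470 and 1910 CPM in young ovaries. Both aged groups were above young in every library, with 2.09 ± 0.26 under auranofin (adjusted p = 0.00028) and 1.28 in untreated aged ovaries (adjusted p = 0.0034). Ferritin genes have many processed pseudogenes, so their tags may be split between copies. Nqo1, a quinone reductase and classic NRF2 target, had 12.2, 20.6, 15.2 and 4.38 CPM in auranofin ovaries and 3.74, 1.73, 4.03, 3.79 and 5.79 CPM in young ovaries. Auranofin 4 overlapped the young range, and the change of 1.77 ± 0.46 (adjusted p = 0.024) lost its call in 6 of the 9 fits that left out 1 library: without young 1 (adjusted p = 0.055), young 2 (0.053), young 4 (0.054), auranofin 1 (0.06), auranofin 2 (0.1) or auranofin 3 (0.055). It also did so without auranofin 3 and young 3 together (1.66, adjusted p = 0.067). Slc7a11, the cystine importer that feeds glutathione synthesis, was at 64.6, 93.2, 63.5 and 5.18 CPM in auranofin ovaries and 3.96, 0.784, 14.8, 2.63 and 2.94 CPM in young ovaries. It rose by 3.49 ± 0.79 (adjusted p = 0.012), by 4.43 without young 3, by 4.32 without auranofin 3 as well and by 4.86 without auranofin 4 in addition. Over single libraries the number of NRF2 members called ran from 11, without auranofin 1, to 18, without young 3. It was 17 without auranofin 3 and young 3, and 15 higher and 1 lower without auranofin 4 as well.

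**Figure D4:**
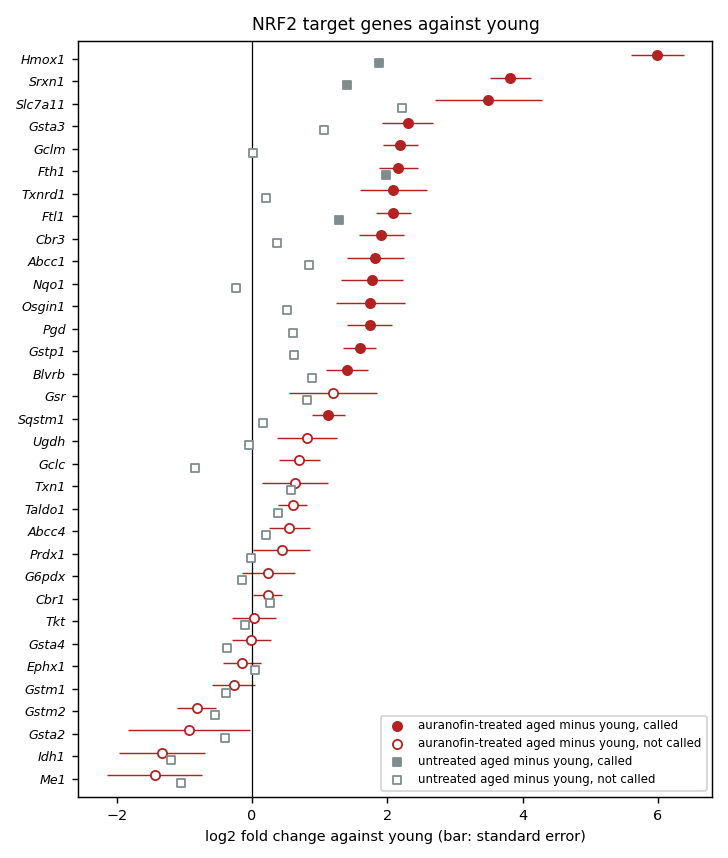
Log2 fold change against young of the 33 tested NRF2 target genes, with circles for auranofin-treated aged ovaries (bars are standard errors) and squares for untreated aged ovaries, filled where called. All 16 filled circles lie above 0, and 4 squares are filled.

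Among thioredoxin, peroxiredoxin and glutathione enzymes 4 of 31 rose and 2 fell, with a median of 0.46, and 2 rose and 1 fell in untreated aged ovaries. Without auranofin 3 and young 3 the counts were 8 higher and 2 lower, and without young 3 or without auranofin 3 alone 8 were called. Prdx6, a peroxiredoxin that uses glutathione to reduce lipid peroxides, had 369, 365, 390 and 536 CPM in auranofin ovaries, 193, 218, 206, 246 and 258 CPM in untreated aged ovaries and 159, 205, 159, 193 and 221 CPM in young ovaries. All auranofin libraries were above all others, and the change from young was 1.15 ± 0.19 (adjusted p = 0.0015) beside 0.26 in untreated aged ovaries (adjusted p = 0.43). Gpx8, a glutathione peroxidase of the endoplasmic reticulum, fell to 78.4, 82.9, 85.1 and 98 CPM in auranofin ovaries, against 142, 147, 145, 169 and 126 CPM in young ovaries (-0.76 ± 0.17, adjusted p = 0.012). The ranges did not overlap. Of 15 other selenoprotein genes 2 rose, Selenon and Msrb1, and Selenoh fell, where 5.42% of all genes rose and 3.56% fell. Selenoh, a nuclear selenoprotein, was at -0.95 ± 0.20 (adjusted p = 0.0083) under auranofin and -0.71 in untreated aged ovaries (adjusted p = 0.024). Msrb1, which reduces oxidised methionine, was at 1.02 ± 0.23 (adjusted p = 0.013), and at 0.88 (adjusted p = 0.053) without auranofin 3, auranofin 4 and young 3. The selenoprotein count ran from 2, without young 1 or without auranofin 1, to 4, without auranofin 3.

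The metallothioneins Mt1 and Mt2, which bind zinc, copper and gold, rose in auranofin ovaries. They were the only 2 of 7 tested metal-response genes called, where 5.42% of all genes rose. Mt1 had 2660, 3010, 3320 and 2350 CPM in auranofin ovaries, 1370, 1360, 1380, 1030 and 837 CPM in untreated aged ovaries and 609, 539, 182, 921 and 1520 CPM in young ovaries. Every auranofin library was above the rest, while untreated aged and young overlapped. Mt1 was higher by 1.91 ± 0.41 (adjusted p = 0.0091) and Mt2 by 2.31 ± 0.53 (adjusted p = 0.013) than in young ovaries, and neither was called in untreated aged ovaries (0.66 and 1.10, adjusted p = 0.33 and 0.2). Against untreated aged ovaries the auranofin values were 1.25 and 1.21 higher with adjusted p of 0.5 and 0.67, so the excess over untreated aged ovaries did not pass.

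Of 17 cytosolic heat shock genes 5 rose and 1 fell under auranofin, with a median of 0.37, and 1 rose in untreated aged ovaries. Under auranofin 5.42% of all genes rose and 3.56% fell. Without auranofin 1 alone 3 were called. Hspb8, a small heat shock protein of the autophagy machinery, had 447, 372, 635 and 491 CPM in auranofin ovaries, 285, 206, 163, 246 and 305 CPM in untreated aged ovaries and 166, 193, 202, 134 and 149 CPM in young ovaries. Auranofin libraries were above all others, with 1.52 ± 0.23 against young (adjusted p = 0.00087) beside 0.51 in untreated aged ovaries (adjusted p = 0.16). Hspb1, another small heat shock protein, rose in both, by 1.45 ± 0.27 under auranofin (adjusted p = 0.0043) and 1.06 in untreated aged ovaries (adjusted p = 0.016). Hspa1a, the inducible Hsp70, was 2.11 ± 0.47 higher than in young ovaries (adjusted p = 0.01), but its sequence is nearly shared with Hspa1b and its tags may be split.

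Genes of the ATF4 integrated stress response, which answers amino acid shortage and misfolded protein, had 6 of 22 members higher than in young ovaries under auranofin, with a median of 0.59, beside 1 higher and 1 lower in untreated aged ovaries. The count was 3 without young 1, without young 2 or without auranofin 1. Asns, asparagine synthetase, was at 33.5, 37.1, 37.1 and 22 CPM in auranofin ovaries, 23.4, 15.7, 15.4, 16.6 and 13.2 CPM in untreated aged ovaries and 14.5, 9.73, 9.82, 11.8 and 8 CPM in young ovaries. Auranofin and young did not overlap (1.59 ± 0.25, adjusted p = 0.0012), and auranofin 4 was the lowest of its group. Eif4ebp1, a brake on cap-dependent translation that ATF4 is known to induce, had 115, 83.5, 98.2 and 114 CPM in auranofin ovaries, 46, 50.1, 49.5, 46 and 37.3 CPM in untreated aged ovaries and 37.3, 31.4, 29.3, 46.3 and 40.9 CPM in young ovaries. Its change from young was 1.47 ± 0.19 (adjusted p = 0.00035), and its excess over untreated aged ovaries, 1.16, just missed the threshold (adjusted p = 0.059). Pex6, a peroxisome biogenesis factor, also came close in that test, at 5.64, 3.13, 3.63 and 5.09 CPM in auranofin ovaries against 11.5, 17.6, 17.8, 14.8 and 15.2 CPM in untreated aged ovaries (-1.81, adjusted p = 0.067). Endoplasmic reticulum chaperones showed no common direction, with 2 of 18 higher and 2 lower under auranofin and a median of 0.34. The shares of all genes were 5.42% higher and 3.56% lower. The chaperone count was 2 without young 4, young 5, auranofin 1 or auranofin 4, and also without auranofin 3, auranofin 4 and young 3 together.

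Neutrophil genes stood far above young ovaries under auranofin. Of 19 tested members 14 rose, with a list median of 4.65 (4.58 with the 3 members absent from young ovaries set to their lower bound), beside 13 in untreated aged ovaries. S100a8, a calcium-binding alarmin of neutrophil granules, had 1080, 1170, 573 and 4490 CPM in auranofin ovaries, 662, 1300, 2240, 210 and 286 CPM in untreated aged ovaries and 1.54, 1.73, 7.05, 3.47 and 3.95 CPM in young ovaries. No aged library came near the young range, and auranofin 4 was the highest of its group by far. The change from young was 9.0 ± 0.93 (adjusted p = 7e-05), 8.01 without auranofin 4 and 9.63 without auranofin 3 and young 3, beside 8.04 in untreated aged ovaries. Ngp, a neutrophil granule protein, had no count in any young library and 120, 47.7, 4.02 and 146 CPM in auranofin ovaries, which is at least 1170-fold higher against a floor of 3 counts over the young group. Clec4d, a C-type lectin receptor of myeloid cells, was at 208, 197, 78.3 and 102 CPM in auranofin ovaries, 81.3, 106, 130, 60.7 and 34.8 CPM in untreated aged ovaries and 1.32, 0.628, 2.01, 2.95 and 3.22 CPM in young ovaries (6.13 ± 0.51, adjusted p = 1.5e-05). The aged groups overlapped each other and not the young ovaries. Il1r2, a decoy receptor for interleukin 1, was 3.91 ± 0.57 higher than in young ovaries (adjusted p = 0.00078) and 3.80 higher in untreated aged ovaries. The neutrophil count was 10 without young 1 or without auranofin 1, and 13 without auranofin 3 and young 3, with or without auranofin 4.

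Macrophage and monocyte genes were higher too, with 19 of 26 tested members called under auranofin (median 2.39) and 20 in untreated aged ovaries (median 2.03). Gpnmb, a membrane glycoprotein of lipid-laden macrophages, had 1530, 578, 62.2 and 3240 CPM in auranofin ovaries, 152, 781, 441, 1640 and 702 CPM in untreated aged ovaries and 8.48, 18.2, 2.52, 53.1 and 40.4 CPM in young ovaries. All aged libraries were above all young ones, with auranofin 3 nearest to young, and the change was 5.78 ± 1.05 (adjusted p = 0.0032), or 4.85 without auranofin 4 and 5.10 without auranofin 3, auranofin 4 and young 3. Cd68, a lysosomal membrane protein of macrophages, was at 149, 111, 47.5 and 173 CPM in auranofin ovaries, 87.4, 149, 105, 129 and 90.1 CPM in untreated aged ovaries and 11.7, 11.5, 32.7, 11.9 and 19.4 CPM in young ovaries. Its change was 2.78 ± 0.39 (adjusted p = 0.00057) beside 2.69 in untreated aged ovaries. Ctss, the cathepsin that trims the invariant chain of MHC class II, rose by 2.96 ± 0.42 (adjusted p = 7e-04), and Fcgr3, an activating IgG receptor, by 2.79 ± 0.43 (adjusted p = 0.001). Of 29 lysosomal genes 11 rose, 2 of them also on the macrophage list, with a median of 1.01 beside 0.98 in untreated aged ovaries. Summed macrophage levels ran from 3180 to 26600 CPM in auranofin ovaries, 8230 to 15800 CPM in untreated aged ovaries and 1760 to 3630 CPM in young ovaries, with auranofin 3 the lowest aged library.

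Part of the lymphocyte genes rose in both aged groups. Of 29 tested B cell and plasma cell genes 9 rose under auranofin (median 1.85) and 16 in untreated aged ovaries (median 3.66). Of 25 tested T cell genes the counts were 11 (median 2.5) and 18 (median 2.88). Igkc, which encodes the constant part of kappa light chains, had 363, 3190, 1570 and 23100 CPM in auranofin ovaries, 4110, 11600, 4550, 10000 and 9230 CPM in untreated aged ovaries and 34.1, 191, 88.2, 132 and 71.1 CPM in young ovaries. Auranofin 1, 2 and 3 were each below every untreated aged library, auranofin 4 was above all of them, and all were above young. The change from young was 6.09 ± 0.96 (adjusted p = 0.0012), 4.02 without auranofin 4 and 4.02 without auranofin 3, auranofin 4 and young 3, beside 6.26 in untreated aged ovaries. Auranofin and untreated aged ovaries differed in Igkc by -0.16 (adjusted p = 0.98).

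Ighm, the heavy chain of IgM, was at 240, 1100, 303 and 2090 CPM in auranofin ovaries, 1690, 2800, 2280, 2410 and 1510 CPM in untreated aged ovaries and 15, 22.6, 13, 21.1 and 17.2 CPM in young ovaries. Auranofin 1, 2 and 3 again lay below the untreated aged range, and auranofin 4 within it. Its change from young was 5.71 ± 0.56 (adjusted p = 4.9e-05), 4.91 without auranofin 4 and 5.10 without the 3 libraries, beside 6.91 in untreated aged ovaries, and the difference between the aged groups, -1.20, did not pass (adjusted p = 0.64). Ighg2b, an IgG2 heavy chain whose sequence is close to that of its neighbours, rose by 8.0 ± 0.92 (adjusted p = 0.00016). Cd3e, a chain of the T cell receptor complex, had 5.40, 5.40, 2.06 and 10.9 CPM in auranofin ovaries, 2.69, 8.52, 8.73, 6.68 and 7.22 CPM in untreated aged ovaries and 0.22, 0, 0.378, 0.316 and 0.0919 CPM in young ovaries (4.78 ± 0.66, adjusted p = 0.00056). No aged library overlapped young. The T cell count was 7 without auranofin 4, 15 without auranofin 3, 16 without auranofin 3 and young 3, and 10 without auranofin 4 as well, and the B cell count ran from 7, without young 1, 3, 4 or 5 or auranofin 4, to 10 without auranofin 3 and young 3. Summed B cell and plasma cell levels were 1170, 5990, 2570 and 28900 CPM in auranofin ovaries, 7540 to 17600 CPM in untreated aged ovaries and 267 to 732 CPM in young ovaries.

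Factors of the senescence-associated secretory phenotype, the cytokines, chemokines and proteases that senescent and inflamed cells release, had many calls in both aged groups. Of 37 tested members 23 rose and 1 fell in auranofin ovaries (median 2.69), and 23 rose and 1 fell in untreated aged ovaries (median 2.16). Il1b, the inflammatory cytokine interleukin 1 beta, had 40.6, 116, 48.9 and 8.49 CPM in auranofin ovaries, 102, 82.8, 186, 43.3 and 25.3 CPM in untreated aged ovaries and 0.44, 0.628, 0.881, 1.68 and 1.01 CPM in young ovaries. All aged libraries were above young, and auranofin 4 was the lowest of them. It rose by 5.81 ± 0.74 (adjusted p = 0.00034), by 5.09 without auranofin 2, beside 6.52 in untreated aged ovaries. The chemokine Ccl2, which draws monocytes, rose by 4.50 ± 0.85 (adjusted p = 0.0043), by 3.72 without auranofin 2 and by 5.30 without auranofin 3, auranofin 4 and young 3. Cxcl10, an interferon-induced T cell attractant, had 43.3, 21.2, 4.22 and 2.68 CPM in auranofin ovaries, 35.8, 33.8, 36, 25.9 and 21.8 CPM in untreated aged ovaries and 1.87, 0.628, 0.755, 5.37 and 1.93 CPM in young ovaries. Auranofin 3 and auranofin 4 overlapped young 4, and the change of 3.05 ± 0.72 (adjusted p = 0.015) lost its call without auranofin 1 (2.07, adjusted p = 0.085). It was 3.70 without young 4 and 3.65 without auranofin 3, auranofin 4 and young 3. Il6 was too low to be tested, with 0.9, 1.35, 0.294 and 0 CPM in auranofin ovaries and no count in young ovaries, a ratio of at least 10.1 against the floor of 3 counts.

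Receptors of the secretory list rose as well. Plaur, the urokinase receptor, was at 35.3, 29.3, 20.4 and 23.8 CPM in auranofin ovaries, 14.3, 15.3, 27, 16.5 and 9.96 CPM in untreated aged ovaries and 2.31, 5.49, 6.29, 2.63 and 2.3 CPM in young ovaries (2.85 ± 0.38, adjusted p = 0.00041). Tnfrsf1a, the main receptor of tumour necrosis factor, was at 344, 355, 347 and 269 CPM in auranofin ovaries, 231, 173, 193, 166 and 145 CPM in untreated aged ovaries and 129, 152, 109, 83.5 and 118 CPM in young ovaries. Its auranofin libraries were above all others, with 1.48 ± 0.20 against young (adjusted p = 0.00057) beside 0.62 in untreated aged ovaries (adjusted p = 0.053). Cxcl5, a neutrophil attractant among the largest rises, was 6.93 ± 0.74 higher than in young ovaries (adjusted p = 8.7e-05). Over single libraries the secretory count ran from 20, without auranofin 1 or 2, to 25, without young 3.

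Of 25 tested NF-kB subunits, inhibitors and target genes 7 rose under auranofin (median 1.00) and 15 in untreated aged ovaries (median 1.49). The auranofin count was 4 without auranofin 2 and 12 without young 3, and it was 9 without auranofin 3 and young 3. Vcam1, an endothelial and stromal adhesion molecule, had 187, 252, 75.4 and 243 CPM in auranofin ovaries, 285, 324, 300, 207 and 107 CPM in untreated aged ovaries and 16.6, 23.1, 18.5, 20.8 and 21.8 CPM in young ovaries (3.23 ± 0.36, adjusted p = 0.00011). Every aged library was above every young one. Icam1, a ligand of leukocyte integrins, rose by 2.69 ± 0.36 (adjusted p = 0.00044), Tnfaip2 by 3.42 ± 0.40 (adjusted p = 0.00016) and Nfkbie, an inhibitor of NF-kB, by 1.99 ± 0.35 (adjusted p = 0.0028). Nfkbie had 9.16, 12.8, 6.86 and 16.7 CPM in auranofin ovaries, 24.8, 31.6, 29.7, 25.8 and 12.1 CPM in untreated aged ovaries and 4.51, 1.88, 2.14, 2.84 and 2.85 CPM in young ovaries. Its auranofin and untreated aged ranges overlapped through untreated aged 5 (-1.12 between them, adjusted p = 0.48).

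Some antigen presentation genes rose. Of 14 tested MHC class II genes 8 rose under auranofin (median 1.58) and 11 in untreated aged ovaries (median 2.07), and of 19 class I genes 6 (median 1.05) and 10 (median 1.45). Summed class II levels were 3680, 3360, 949 and 5590 CPM in auranofin ovaries and 653, 1280, 595, 1090 and 718 CPM in young ovaries, so auranofin 3 lay within the young range. B2m, the light chain of class I molecules, had 5000, 4630, 1940 and 4520 CPM in auranofin ovaries, 3530, 3530, 4900, 5540 and 5020 CPM in untreated aged ovaries and 1060, 1200, 1820, 1270 and 1120 CPM in young ovaries. Auranofin 3 came within reach of young 3, and the change was 1.64 ± 0.28 (adjusted p = 0.0019). H2-Aa and H2-Ab1, the 2 chains of a class II molecule, rose by 1.62 ± 0.37 (adjusted p = 0.012) and 1.55 ± 0.37 (adjusted p = 0.015), beside 2.16 and 1.98 in untreated aged ovaries. The class II count was 4 without young 1, young 5 or auranofin 2 and 11 without auranofin 3, and it was 10 without auranofin 3 and young 3. The class I count was 4 without young 2 or auranofin 1, and it was 10 without auranofin 3, auranofin 4 and young 3.

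Interferon-stimulated genes had few calls. Only 2 of 37 tested members, Ifi47 and Igtp (chosen for naming after their values were seen), rose under auranofin, a share near the 5.42% of all genes, and the list median was -0.24, beside 4 members and 0.33 in untreated aged ovaries. The count was 0 without auranofin 1, 6 without young 3, 4 without auranofin 3 and young 3, and 7 without auranofin 4 as well. Isg15, a ubiquitin-like modifier, had 11, 29, 6.67 and 6.61 CPM in auranofin ovaries, 29, 18.1, 49.2, 26.1 and 41 CPM in untreated aged ovaries and 8.15, 7.84, 29.7, 16.3 and 13.6 CPM in young ovaries. The groups overlapped, and its change of -0.18 ± 0.49 (adjusted p = 0.87) turned to 0.22 without young 3, 0.01 without auranofin 4, 0.39 without auranofin 3 and young 3 and 0.76 without auranofin 4 as well, and came to 0 without auranofin 3. Of 17 sensors and regulators of cytosolic nucleic acid 6 rose in both aged groups (medians 0.79 and 0.77). Ifi204, a DNA sensor, had 76.1, 95.2, 102 and 91.8 CPM in auranofin ovaries, 67.8, 81.6, 80, 54.8 and 47.2 CPM in untreated aged ovaries and 23.2, 35.1, 59.9, 22 and 22.9 CPM in young ovaries (1.49 ± 0.29, adjusted p = 0.0053). Samhd1, which breaks down deoxynucleotides, rose by 0.98 ± 0.20 (adjusted p = 0.0066). The sensing count ran from 4, without auranofin 1 or 4, to 9, without young 3.

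Part of the oocyte genes fell in both aged groups. Of 22 tested members (30 listed) 11 fell under auranofin and 13 in untreated aged ovaries, with medians of -3.78 and -3.75. Nlrp5, a maternal-effect gene needed for early cleavage, had no count in any auranofin ovary, 0, 0, 0.371, 0.393 and 0.274 CPM in untreated aged ovaries and 7.16, 13.6, 0, 3.79 and 8.37 CPM in young ovaries. The zero of young 3 overlapped the aged groups, and over the group auranofin was at least 101-fold lower than young against the floor of 3 counts (adjusted p = 0.0089). Padi6, a component of the oocyte lattices, was likewise at 0 in all auranofin libraries and at least 115-fold lower (adjusted p = 0.013). H1foo, the oocyte linker histone, was at 0 in auranofin ovaries and at 7.60, 14.7, 0, 20.1 and 7.36 CPM in young ovaries, at least 158-fold lower (adjusted p = 0.02, and 0.05, not called, without auranofin 1). Zp3, a zona pellucida protein, was at 0.0818, 0.71, 0 and 0 CPM in auranofin ovaries and 3.63, 7.22, 0, 7.89 and 5.61 CPM in young ovaries. It missed the threshold (-4.46 ± 1.45, adjusted p = 0.067), and passed it without young 3 (-4.78, adjusted p = 0.023), without auranofin 2 (-6.90, adjusted p = 0.041) and without auranofin 3 and young 3 (-4.46, adjusted p = 0.039). Without auranofin 3 and young 3 the oocyte count was 17, and without auranofin 4 as well it was 15, while it was 4 without young 2 or auranofin 1, 5 without young 5, 6 without young 4 and 7 without young 1.

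**Figure D5:**
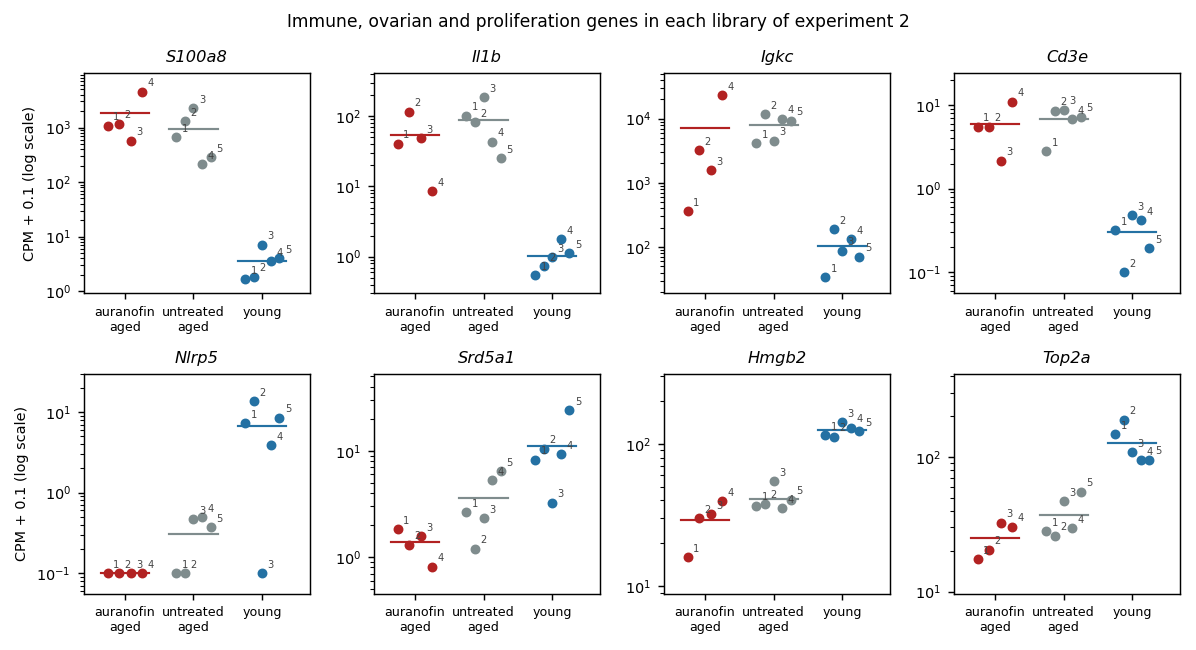
CPM plus 0.1 on a log scale of 8 genes in every library of experiment 2, in auranofin-treated aged, untreated aged and young ovaries from left to right, numbered by replicate, with a line at each group mean. S100a8, Il1b, Igkc and Cd3e are higher in every aged than in every young library, Hmgb2 and Top2a are lower, and the Nlrp5 value of young 3 lies at 0 with the auranofin ovaries.

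Somatic follicle and corpus luteum genes had few calls, and their number moved with the libraries left out. Of 19 granulosa genes 2 fell, Foxl2 and Slc18a2 (named after their values were seen), where 3.56% of all genes fell. In untreated aged ovaries 4 fell. The granulosa count was 0 without auranofin 1 and 5 without young 3. Amh, the hormone of small growing follicles, had no count in any library of either group. Since young ovaries had none either, these 3′ end counts do not tell an absent transcript from one they miss. Of 19 steroid synthesis genes 2 rose and 3 fell (median -1.41), and of 18 luteal genes 1 rose and 3 fell (median -1.60). The shares over all genes were 5.42% higher and 3.56% lower. Srd5a1, a steroid 5-alpha reductase, had 1.72, 1.21, 1.47 and 0.715 CPM in auranofin ovaries, 2.54, 1.10, 2.23, 5.21 and 6.31 CPM in untreated aged ovaries and 8.15, 10.4, 3.15, 9.16 and 24.1 CPM in young ovaries. Auranofin and young did not overlap (-3.09 ± 0.63, adjusted p = 0.0065), and untreated aged ovaries lay between them (-1.66, adjusted p = 0.064). Akr1c18, which inactivates progesterone as corpora lutea regress, was at 5.23, 1.78, 0.49 and 0.0894 CPM in auranofin ovaries and 49.9, 2.35, 0.755, 355 and 820 CPM in young ovaries. The groups overlapped through young 2 and young 3, and the change of -6.99 ± 1.82 (adjusted p = 0.025) missed the threshold without young 5 (-5.73, adjusted p = 0.054), auranofin 2 (-6.98, 0.071), auranofin 3 (-6.73, 0.054), auranofin 4 (-6.63, 0.056) or auranofin 3, auranofin 4 and young 3 together (-6.49, 0.05), and was -8.27 without auranofin 1. Steroid counts were 1 without auranofin 2, 8 without young 3 and 2 higher with 6 lower without auranofin 3 and young 3, and luteal counts were 2 without auranofin 2 and 7 without young 3. Summed steroidogenic levels ran from 959 to 1540 CPM in auranofin ovaries, 770 to 2880 CPM in untreated aged ovaries and 755 to 5790 CPM in young ovaries, where the low value is that of young 3. The part that the tissue content of auranofin 3 and young 3 had in the calls was not tested.

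Some genes of mitosis and DNA replication fell, with 9 of 30 tested members called under auranofin (median -1.24) and 6 in untreated aged ovaries (median -0.52). Top2a, the topoisomerase of dividing cells, had 17.3, 20.4, 32.5 and 30.2 CPM in auranofin ovaries, 27.9, 26, 46.7, 29.6 and 55.2 CPM in untreated aged ovaries and 147, 189, 108, 94.3 and 95 CPM in young ovaries. No aged library reached the young range, and the change was -2.33 ± 0.32 (adjusted p = 0.00053), beside -1.77 in untreated aged ovaries. Cenpf, a kinetochore protein, fell by 1.96 on the log2 scale (SE 0.31, adjusted p = 0.0012). The mitosis count was 9 without auranofin 3 and young 3, with or without auranofin 4, and 6 without young 5, auranofin 1 or auranofin 2. Among 28 arrest and p53 genes 3 rose and 1 fell (median 0.27), where 5.42% of all genes rose and 3.56% fell. Cdkn1a, the cell cycle inhibitor p21, had 63.1, 56.7, 58.1 and 59.2 CPM in auranofin ovaries, 38, 63.8, 59.5, 54.9 and 33.4 CPM in untreated aged ovaries and 14.4, 20.4, 32, 16.2 and 21.2 CPM in young ovaries. All auranofin libraries were above young (1.51 ± 0.25, adjusted p = 0.0019).

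Cdkn2a, whose products include the senescence marker p16, had 2.45, 7.74, 4.31 and 1.34 CPM in auranofin ovaries, 11.7, 9.44, 9.01, 8.45 and 7.40 CPM in untreated aged ovaries and 1.10, 0, 0, 2.84 and 1.75 CPM in young ovaries. These 3′ end counts are per gene and do not separate its transcripts, so they are not levels of p16 alone. Auranofin 1 and auranofin 4 lay within the young range and auranofin 2 within the untreated aged range. Its change from young was 1.75 ± 0.80 under auranofin (adjusted p = 0.2) and 2.96 in untreated aged ovaries (adjusted p = 0.026), and the aged groups differed by -1.21 (adjusted p = 0.82), so a loss of the difference was not shown. Hmgb2, a chromatin protein lost in senescence, fell to 15.8, 29.8, 31.8 and 39.4 CPM in auranofin ovaries, against 36.7, 37.8, 54.5, 35.1 and 40.4 CPM in untreated aged ovaries and 115, 112, 142, 130 and 123 CPM in young ovaries (-2.09 ± 0.25, adjusted p = 2e-04). Every aged library was far below young. The arrest count was 2 without young 1, 2 or 4 or auranofin 1 or 2.

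The 10 largest rises among called genes that averaged at least 5 CPM and whose groups were separate (CPM ranges of 5.13% of all genes lay wholly higher in auranofin ovaries, and of 4.34% wholly lower) were S100a8, S100a9, Ngp, Camp, Chil3, Clec4e, Cxcl5, Ighg2b, Ighg2c and Fosl1. They are myeloid, immunoglobulin and chemokine genes apart from Fosl1, a subunit of the AP-1 transcription factor. The 10 largest falls were Tcea1-ps1, Dcpp3, Wfdc10, Snord89, Kif20b, Cenpk, Sgo2a, Aspm, Ccdc18 and Rnu11. Kif20b, Cenpk, Sgo2a and Aspm act at the mitotic spindle or kinetochore. Ccdc18, a coiled-coil protein, had 2.21, 1.78, 2.06 and 2.14 CPM in auranofin ovaries, 4.50, 2.66, 4.92, 1.67 and 1.55 CPM in untreated aged ovaries and 18.6, 30, 9.69, 12.9 and 17.6 CPM in young ovaries (-3.11 ± 0.44, adjusted p = 7e-04). The 2 aged groups overlapped and young ovaries stood apart. Tcea1-ps1, a pseudogene of a transcription elongation factor, had no count in any aged ovary of experiment 2 and 15.9, 27.1, 28.6, 5.16 and 10.6 CPM in young ovaries, at least 257-fold lower under auranofin (adjusted p = 0.00084). Its tags may belong to copies of the parent gene. Snord89 and Rnu11 are small RNAs that normally carry no polyA tail, so their counts in polyA libraries are uncertain.

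Markers of other tissues were looked at for each library. Adipocyte genes summed to 8850, 6710, 836 and 18300 CPM in auranofin ovaries, 1080 to 7370 CPM in untreated aged ovaries and 318 to 7450 CPM in young ovaries. Auranofin 1 and auranofin 4 were above every other library, with 0 to 2 of 17 listed markers at 0 counts in each library. Of 16 tested adipocyte genes 1 rose, Pnpla2, a share near the 5.42% of all genes. The adipocyte count was 5 without auranofin 3 and young 3, and 0 without young 1, auranofin 1 or auranofin 4. Oviduct and uterine epithelium genes summed to 1160 to 3390 CPM in auranofin ovaries and 1930 to 6050 CPM in young ovaries, with the highest value of each group in auranofin 3 and young 3, and none of 20 tested genes was called, beside 4 lower ones without these libraries. Of 15 tested endothelial genes Vwf and Plvap rose, where 5.42% of all genes rose. The endothelial count was 0 without auranofin 1 or auranofin 2 and 1 without young 1, young 2, young 4 or auranofin 4. Of 11 red blood cell genes none was called, beside 2 without young 2 or auranofin 3 and 3 with DESeq2, of 11 muscle genes none was called, and of 10 hepatocyte genes Ahsg rose and Apoa1 fell (all named after their values were seen). Red blood cell genes summed to 4730 to 73300 CPM in auranofin ovaries and 2730 to 55700 CPM in young ovaries. The part of these other tissues in the differences from young was not tested. Of 34 collagen and matrix genes 5 rose under auranofin (median 0.50) and 4 in untreated aged ovaries. Loxl1, which crosslinks elastin, had 277, 252, 191 and 243 CPM in auranofin ovaries, 187, 239, 183, 222 and 209 CPM in untreated aged ovaries and 86.6, 92.4, 106, 85.9 and 107 CPM in young ovaries (1.33 ± 0.17, adjusted p = 0.00037), all aged libraries being above young. The matrix count was 2 without young 4 or auranofin 1, 3 without young 1 or auranofin 2, and 7 without young 3.

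Many age genes of experiment 1 did not pass under auranofin, and the 6 with the smallest p in experiment 1 and at least 5 CPM on average are described here. The immune genes Tap1, the peptide transporter of class I loading, H2-DMa, which loads class II molecules, and Myo1g, a myosin of lymphocytes, were at 0.81 (adjusted p = 0.21), 1.27 (adjusted p = 0.12) and 1.54 (adjusted p = 0.075). Tap1 had 76.1, 50.4, 36.8 and 71.6 CPM in auranofin ovaries and 29.4, 22.9, 77.5, 17.2 and 20 CPM in young ovaries. Young 3 was above every auranofin library, and without it Tap1 passed (1.39, adjusted p = 0.0034), as it did without auranofin 3 as well (1.52, adjusted p = 0.0014) and without all 3 libraries (1.47, adjusted p = 0.0034). H2-DMa passed without auranofin 3 (1.58, adjusted p = 0.019) and without auranofin 3 and young 3 (1.51, adjusted p = 0.03), and Myo1g without young 2 (2.27, adjusted p = 0.0034) or auranofin 3 (1.74, adjusted p = 0.047). Rn7sk, a small nuclear RNA, was at -0.98 (adjusted p = 0.3), with -1.83 without auranofin 4 (adjusted p = 0.041) and -2.21 without all 3 libraries (adjusted p = 0.01). Nipal1, a magnesium transporter-like protein, was at -1.23 (adjusted p = 0.096), and Tlnrd1, an actin-bundling protein, at 0.42 (adjusted p = 0.52). Of the 6 genes, H2-DMa, Myo1g and Nipal1 were called in untreated aged ovaries of experiment 2 (adjusted p = 0.019, 0.0092 and 0.0026), and the other 3 were not called there either (adjusted p = 0.11, 0.15 and 0.3).

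TRi-1, the other inhibitor of thioredoxin reductase in the series, was given in experiment 1, so drug and experiment cannot be told apart. The test of whether the auranofin change from young differed from the TRi-1 change from young called 1 of 17484 genes (0.00572%). In it 1427 of the 17484 genes had an unadjusted p under 0.05, more than the share of 0.05 awaited if none differed. The gene called was Hmox1, whose change from young was 5.99 under auranofin in experiment 2 and 2.68 under TRi-1 in experiment 1, with a difference of 3.31 (adjusted p = 0.021). Untreated aged ovaries also differed from young in Hmox1, by 1.87 in experiment 2 and 3.38 in experiment 1. The count was 0 without young 1, young 5 or auranofin 1, 3 without young 3, 10 without young 4, 15 without young 2 and 31 without auranofin 4.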

How the data were processed

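RNA of mouse ovaries was extracted with RNeasy columns and DNase and made into Lexogen QuantSeq libraries, per the labels' protocols. The authors deposited whole-number counts per gene, and RSEM 1.2.3, DESeq2 and mm10 are named, without roles, per the submitters' processing notes. The strand setting and the annotation are not given in the sources used here. Of 51789 gene IDs, 51596 were given symbols and coordinates from GENCODE M21 (GRCm38), and the table held 0 columns of other samples.

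Counts were tested with edgeR 4.0.16 in R 4.3.3 (quasi-likelihood F test, TMM library sizes, filterByExpr, group means), with Benjamini-Hochberg adjustment over all genes and a threshold of 0.05. The 14 libraries of experiment 2 were fitted together, the 13 of experiment 1 likewise, and all 27 in 1 fit for the difference from TRi-1. Standard errors were derived from the log2 fold change and its F statistic. Where a group had no count, a bound was taken against 3 counts over the group. Bounds and totals cover counting error only. The scripts were tested on simulated counts.

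The members, lists and tests were chosen with earlier results of these data known. Genes named were the 10 largest rises and falls (called, at least 5 CPM on average, groups not overlapping), up to 6 genes of the direct comparison of the aged groups by smallest p, genes called in the difference from TRi-1, up to 4 members by smallest p of each list with at least 3 calls, 6 age genes of experiment 1 not called under auranofin, and a fixed set of stress, senescence, immune and oocyte genes. A selection of these is printed, and members outside the rule are marked as named after their values were seen. Alternatives were DESeq2 1.42.0 with its own size factors, RLE scaling, limma-voom with quality weights (limma 3.58.1), other filters, other sets of libraries, a replicate block and leaving out single libraries of the groups that enter each count (for the age genes, also untreated libraries of experiment 1). Leaving out auranofin 3 and young 3, with or without auranofin 4, was chosen after seeing the data. Plots used Python 3.11.15 and matplotlib 3.10.9.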

Additional observations from a re-analysis of the deposited data

Results flagged for a closer look

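Among 203 sets of values, each the CPM of 1 gene in 1 group, tested for a value far from the others, 23 held one. The rate of about 5% by chance holds for normal and independent values. CPM of genes from the same libraries are not independent, so the 23 cannot be set against that rate. Auranofin 4 held 6 of them: it was highest for Igkc (23100 CPM), S100a8 (4490 CPM), Prdx6 (536 CPM) and Msrb1 (172 CPM) and lowest for Tnfrsf1a (269 CPM) and Il1r2 (10.3 CPM). Auranofin 3 was lowest of its group for B2m (1940 CPM), and auranofin 2 was highest for Zp3 (0.71 CPM). Among untreated aged ovaries, replicate 3 was highest for Gclm (31.4 CPM), Hmgb2 (54.5 CPM) and Zp3 (0.65 CPM), replicate 5 was highest for Akr1c18 (18.3 CPM) and lowest for Srxn1 (49.5 CPM), replicate 2 was highest for H1foo (3.02 CPM) and replicate 4 for Padi6 (1.18 CPM). Among young ovaries, replicate 3 was highest for B2m (1820 CPM), Txnrd1 (105 CPM), Tap1 (77.5 CPM) and Slc7a11 (14.8 CPM), replicate 2 for Nipal1 (12.1 CPM) and Myo1g (9.26 CPM), and replicate 4 for H2-Aa (267 CPM) and Cxcl10 (5.37 CPM). Causes of these values were not tested. The Hmox1 change from young was 3.31 larger on the log2 scale under auranofin than under TRi-1, a difference between experiments as well as drugs that cannot be told apart.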

How the results depend on the processing

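The count of genes called in auranofin against young ovaries, 1464, was 2329 with DESeq2, 2677 with limma-voom, 733 in a fit of these 9 libraries alone and 2398 in a fit of all 27, and 906 to 1840 over single libraries left out. The count for untreated aged against young, 1705, was 2642 with limma-voom and 2568 without auranofin 3, auranofin 4 and young 3, and 1171 to 1812 over single libraries. Auranofin against untreated aged ovaries gave 3 genes with edgeR, 76 with DESeq2, 33 with limma-voom and 10 in the fit of all 27, and 3 to 3 over single libraries. The 977 genes shared by the aged groups became 1601 with limma-voom and 1505 in the fit of all 27, and 680 to 1184 over single libraries. The 1137 age genes of experiment 1 became 1756 with limma-voom, and 747 to 1380 over single libraries. The difference from TRi-1 called 101 genes with DESeq2, 51 with limma-voom and 2 above 5 CPM, and 0 to 31 over single libraries. Of the list counts printed, these also moved by more than 1.5 times. With DESeq2, 14 mitosis, 8 steroid, 4 granulosa, 10 thioredoxin, 4 endothelial and 2 oviduct genes were called. With limma-voom, 5 B cell, 6 interferon-stimulated, 2 luteal, 13 thioredoxin, 4 metal-response, 9 matrix, 19 lysosomal, 1 red blood cell and 1 oviduct genes were called. In the fit of the 9 libraries alone, 7 oocyte, 1 granulosa, 1 steroid, 2 luteal, 2 class II, 1 interferon-stimulated, 3 sensing, 2 arrest, 3 thioredoxin, 1 selenoprotein, 1 metal-response, 3 heat shock, 1 chaperone, 3 ATF4, 2 matrix, 0 endothelial, 0 adipocyte and 1 hepatocyte genes were called. In the fit of all 27, 19 oocyte, 4 granulosa, 8 steroid, 14 mitosis, 9 matrix, 19 lysosomal, 4 endothelial, 3 red blood cell and 1 oviduct genes were called. Above 5 CPM, 4 oocyte, 4 T cell and 0 hepatocyte genes were called. Without a filter, 3 steroid, 2 arrest, 1 endothelial and 2 red blood cell genes were called. With the replicate block, 2 steroid, 2 luteal, 0 interferon-stimulated and 1 oviduct genes were called. The NRF2, macrophage, secretory and class I counts moved by less in each of these fits. Txnrd2 turned to 0.10 and Isg15 to 0.13 with limma-voom. Over single libraries left out Txnrd2 ran from -0.26 to 0.04, turning positive in 3 fits (0.01, 0.03 and 0.04), and was 0.09 without auranofin 3, auranofin 4 and young 3. Isg15 ran from -0.91, without auranofin 2, to 0.22 without young 3, and was 0 without auranofin 3, 0.01 without auranofin 4, 0.39 without auranofin 3 and young 3, and 0.76 without auranofin 4 as well. The causes were not tested beyond the smaller number of libraries. Same-numbered libraries deviated together for some numbers only. Correlations of auranofin with young were 0.37, -0.39, 0.51 and -0.32, and only replicate 3 exceeded its best match of another number (0.082). For auranofin with untreated aged they were 0.21, -0.31, 0.05 and 0.62, and only replicate 4 exceeded it (0.41). For untreated aged with young, replicates 1 (0.29 against 0.23) and 2 (0.3 against 0.082) exceeded it. The labels state no block, so the replicate numbers were not taken as pairs. With the replicate block, 1098 genes were called in auranofin against young, 1487 in untreated aged against young, 788 in both, 827 of the age genes, 11 between the aged groups (3 higher, 8 lower) and 1 in the difference from TRi-1. Young libraries were the shallowest, so low genes are the least certain there.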
